A study of Mus musculus with 18 samples.

Results

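The proteasome subunit genes were followed across the livers of 18 mice that differed in diet and in SIRT1 genotype. A gene was taken when the array's annotation gave it a symbol made of Psma, Psmb, Psmc or Psmd and a number, leaving out the inducible subunits Psmb8, Psmb9 and Psmb10, and when a probe was detected (detection p under 0.05) in at least 2 libraries. The symbol rule found 34 of the 16593 gene symbols on the array, and 30 of these were among the 8950 genes detected. One of the 30, Psmc3ip, matched by its letters only, since it encodes a meiotic recombination protein and no subunit. The remaining 29 genes were 12 of the core and 17 of the regulatory particle, and all 29 were detected in all 18 libraries. The core genes were Psma2, Psma3, Psma4, Psma5 and Psma7 of the alpha ring and Psmb1 to Psmb7 of the beta ring. The regulatory genes were the base ATPases Psmc1 to Psmc5, 9 non-ATPase subunits (Psmd1, Psmd2, Psmd4, Psmd7, Psmd8, Psmd11, Psmd12, Psmd13 and Psmd14) and 3 chaperones that help to assemble the base (Psmd5, Psmd9 and Psmd10). Psma1, Psma6, Psmc6 and Psmd6 had no probe that passed the detection limit.

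The mice were SIRT1+/+, SIRT1+/- or SIRT1-/-, with 2, 1 or 0 copies of the gene for the deacetylase SIRT1, and ate ad libitum (AL) or a diet restricted by 40% (CR). Diets began at 2 to 5 months of age by the labels, and livers were taken at 13 to 16 months. There were 3 mice in every CR group, and on AL there were 3 SIRT1+/+, 2 SIRT1+/- and 4 SIRT1-/- animals. The labels give all mice as male C57BL/6J, and the AL and CR mice also differed in chow, the restricted mice being fed a fortified one. The study asked whether the liver's answer to CR depends on SIRT1.

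The proteasome is the protease that removes most short-lived and damaged proteins of the cell after they have been tagged with ubiquitin. Its core is a barrel of alpha and beta rings, in which Psmb5, Psmb6 and Psmb7 carry the cutting sites. The regulatory particle caps the barrel, binds the ubiquitin chain, removes it and feeds the unfolded substrate into the core through a ring of ATPases. In mammalian cells the subunit genes are known to be switched on together by the transcription factor Nfe2l1 through antioxidant response elements in their promoters.

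Promoter sequences were matched by symbol for 24 of the 29 genes (RefSeq, GRCm38.p6; the unmatched ones were Psmb1, Psmb2, Psmb7, Psmc3 and Psmd7), and the 250 bases before the start of the gene were searched on both strands for the antioxidant response element core TGACNNNGC and for the box CCAAT. TGACNNNGC stood in Psmb5, Psmb6, Psmd9 and Psmd12, which is 16.7% of the 24, beside 10.1% of all 27025 promoters of that length. CCAAT stood in 9, or 37.5%, beside 34.5% of all promoters, and none of the 24 held both motifs, beside 3.27% of all promoters. The promoters of 4 genes are shown as examples, and whether a motif goes with a change on CR was not tested. Psmb5 and Psmb6 are core subunits with a TGACNNNGC (in capitals) 47 and 9 bases before the start. On CR Psmb5 had a higher and Psmb6 a lower mean level, and neither passed the adjusted test. Psmd4 and Psmd8 are non-ATPase subunits that fell and rose on CR, the first with a CCAAT box on the other strand (in capitals, read as ATTGG) and the second with neither motif. Psmb5 lies at chr14:54617996-54618245 on the minus strand, Psmb6 at chr11:70525107-70525356 on the plus strand, Psmd4 at chr3:95042615-95042864 on the minus strand and Psmd8 at chr7:29180674-29180923 on the minus strand, each run being the 250 bases before the start.
Psmb5: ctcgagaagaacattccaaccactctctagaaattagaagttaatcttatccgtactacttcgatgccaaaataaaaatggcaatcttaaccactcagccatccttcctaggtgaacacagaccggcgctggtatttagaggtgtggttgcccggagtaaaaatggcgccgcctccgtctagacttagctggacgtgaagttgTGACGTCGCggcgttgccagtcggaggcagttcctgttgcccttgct
Psmb6: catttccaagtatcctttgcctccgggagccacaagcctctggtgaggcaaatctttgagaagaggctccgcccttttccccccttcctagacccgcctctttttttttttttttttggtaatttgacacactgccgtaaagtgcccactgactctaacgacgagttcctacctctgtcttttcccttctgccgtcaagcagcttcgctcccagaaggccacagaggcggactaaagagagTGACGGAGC
Psmd4: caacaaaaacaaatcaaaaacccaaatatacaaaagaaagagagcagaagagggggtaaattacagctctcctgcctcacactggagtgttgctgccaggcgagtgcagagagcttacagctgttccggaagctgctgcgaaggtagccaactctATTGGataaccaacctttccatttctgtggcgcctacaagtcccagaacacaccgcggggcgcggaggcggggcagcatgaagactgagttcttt
Psmd8: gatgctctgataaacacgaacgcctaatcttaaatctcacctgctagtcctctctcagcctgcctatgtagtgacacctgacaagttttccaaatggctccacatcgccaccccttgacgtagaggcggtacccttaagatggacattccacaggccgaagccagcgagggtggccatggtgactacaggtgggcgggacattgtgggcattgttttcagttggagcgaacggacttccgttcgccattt

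Each library was 1 liver on 1 array, and levels are z-transformed log signals put back on a log2 scale, on which 0 is the average probe of an array. The median signal ran from 59.3 to 78.8 on AL and from 57.4 to 86.6 on CR. Xist, the transcript of the silenced X chromosome of females, passed the detection limit in 2 AL and 5 CR libraries. The labels give males only and the study's supplement gives both sexes. These were 0 of 3 AL and 2 of 3 CR libraries in SIRT1+/+, and 0 of 2 and 1 of 3 in SIRT1+/- mice. In SIRT1-/- mice they were 2 of 4 AL and 2 of 3 CR libraries. Diet and Xist thus went together in part, most of all in SIRT1+/+ mice. The AL SIRT1-/- replicate 4 stood apart by its acute-phase genes. The group of the library labelled AL SIRT1-/- replicate 1 was in doubt, and the main results that use it are given also with it moved to AL SIRT1+/-. Of 6 hepatocyte markers 5 were detected, Alb in 14 libraries and the other 4 in all 18, and Tat was not detected. Of 7 Kupffer cell markers 6 had a lower mean on CR (median log2 change -0.47, 1 called), with a mean level of 1.26 to 2.25 in AL and 0.76 to 1.67 in CR livers. Both erythroid markers had a lower mean too (median -1.21, 1 called), at 4.42 to 6.64 in AL and 3.60 to 6.05 in CR livers. Their part in the results was not tested. Since these are bulk samples, fewer cells of a type and less RNA per cell cannot be told apart.

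With the diets compared over all 3 genotypes, 3 proteasome genes fell on CR and 1 rose. Psmd7 (1.26-fold lower), Psmd4 (1.38-fold lower) and Psmb7 (1.27-fold lower) fell, and Psmd8 was 4.22-fold higher. The 4 genes are 4 of 29 members, beside 10% of the 8950 genes called in this comparison at a limma adjusted p under 0.05. By direction, 3.63% of all genes fell and 6.41% rose. At an unadjusted p under 0.05, 14 members were lower and 3 higher, beside 11.5% and 16.4% of all genes. In all, 21 of 29 members had a lower mean level on CR, 10 of 12 in the core and 11 of 17 in the regulatory particle, beside 45.5% of all genes, and 14 of the 21 were lower under all 4 scalings of the arrays that were tried. The count of 4 changed with single libraries, and the share of all genes called in those fits is not given here. It was 1 without either AL SIRT1+/- library, 2 without AL SIRT1+/+ replicate 1 or 2, CR SIRT1+/- replicate 2 or CR SIRT1-/- replicate 2, and 7 without AL SIRT1-/- replicate 4 or CR SIRT1+/+ replicate 1. In the 11 libraries without Xist 23 members had a lower mean level on CR, beside 51.1% of all genes. That fit left 1 CR SIRT1+/+ and 1 CR SIRT1-/- library, so its calls are not given.

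Psmd7, a lid subunit that holds the deubiquitinase Psmd14 in place, was the most regular of the falls. Psmd7 read 3.84, 3.76 and 3.78 in AL SIRT1+/+, 3.80, 3.72 and 3.39 in CR SIRT1+/+, 3.89 and 3.97 in AL SIRT1+/-, 3.63, 3.53 and 3.41 in CR SIRT1+/-, 4.12, 3.83, 3.86 and 3.94 in AL SIRT1-/-, and 3.34, 3.63 and 3.56 in CR SIRT1-/- livers. All CR livers lay below all AL livers in SIRT1+/- and in SIRT1-/- mice, while in SIRT1+/+ mice the groups overlapped, with 1 CR liver within the AL range. The averaged change was -0.33 ± 0.0747 (standard error, n = 9 per diet), with an adjusted p of 0.0141 by limma. Rearranging diet within genotype in all 7000 ways gave a two-sided p of 0.000429 by this exact permutation test, or 0.0181 adjusted over all genes. Of all genes, 29.3% had an unadjusted p under 0.05 by that test. It was called without any single library, and lost its call under median scaling (-0.21, adjusted p = 0.108) and with the mean of its probes (-0.26, adjusted p = 0.0594). In the 11 libraries without Xist its change was -0.39.

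Psmd4, a receptor for ubiquitin chains, had the widest fall. Psmd4 read 5.76, 5.61 and 5.51 in AL SIRT1+/+, 5.58, 5.27 and 5.06 in CR SIRT1+/+, 5.96 and 5.94 in AL SIRT1+/-, 5.46, 4.97 and 5.68 in CR SIRT1+/-, 6.17, 5.65, 5.73 and 5.37 in AL SIRT1-/-, and 5.48, 5.04 and 5.19 in CR SIRT1-/- livers. The groups were apart in SIRT1+/- mice and overlapped in the other 2 genotypes, and the library labelled AL SIRT1-/- replicate 1 was the highest of the 18. The averaged change was -0.47 ± 0.123 (adjusted p = 0.0272, exact permutation p = 0.00229, or 0.0338 adjusted over all genes). It was called in 12 of the 18 fits without 1 library, and no longer called with Eif2s3y, a Y-linked transcript, as a covariate (-0.40, adjusted p = 0.0851) or under median scaling (-0.24, adjusted p = 0.109).

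Psmb7, the core subunit that cuts after basic residues, read 4.93, 4.79 and 4.80 in AL SIRT1+/+, 4.30, 4.53 and 4.51 in CR SIRT1+/+, 4.97 and 4.65 in AL SIRT1+/-, 4.39, 4.54 and 4.94 in CR SIRT1+/-, 5.11, 4.89, 4.52 and 5.07 in AL SIRT1-/-, and 4.49, 4.23 and 4.64 in CR SIRT1-/- livers. It set all CR livers below all AL livers in SIRT1+/+ mice only, and the ranges overlapped in the other 2 genotypes. The averaged change of -0.34 ± 0.104 was the least secure of the calls (adjusted p = 0.0471 by limma), since it was called in only 3 of 18 fits without 1 library. Its exact permutation p was 0.00629, or 0.0547 adjusted over all genes, which did not pass. The adjusted p by limma was 0.0845 with quantile normalization and 0.323 with median scaling, where the change was -0.17.

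**Figure D1:**
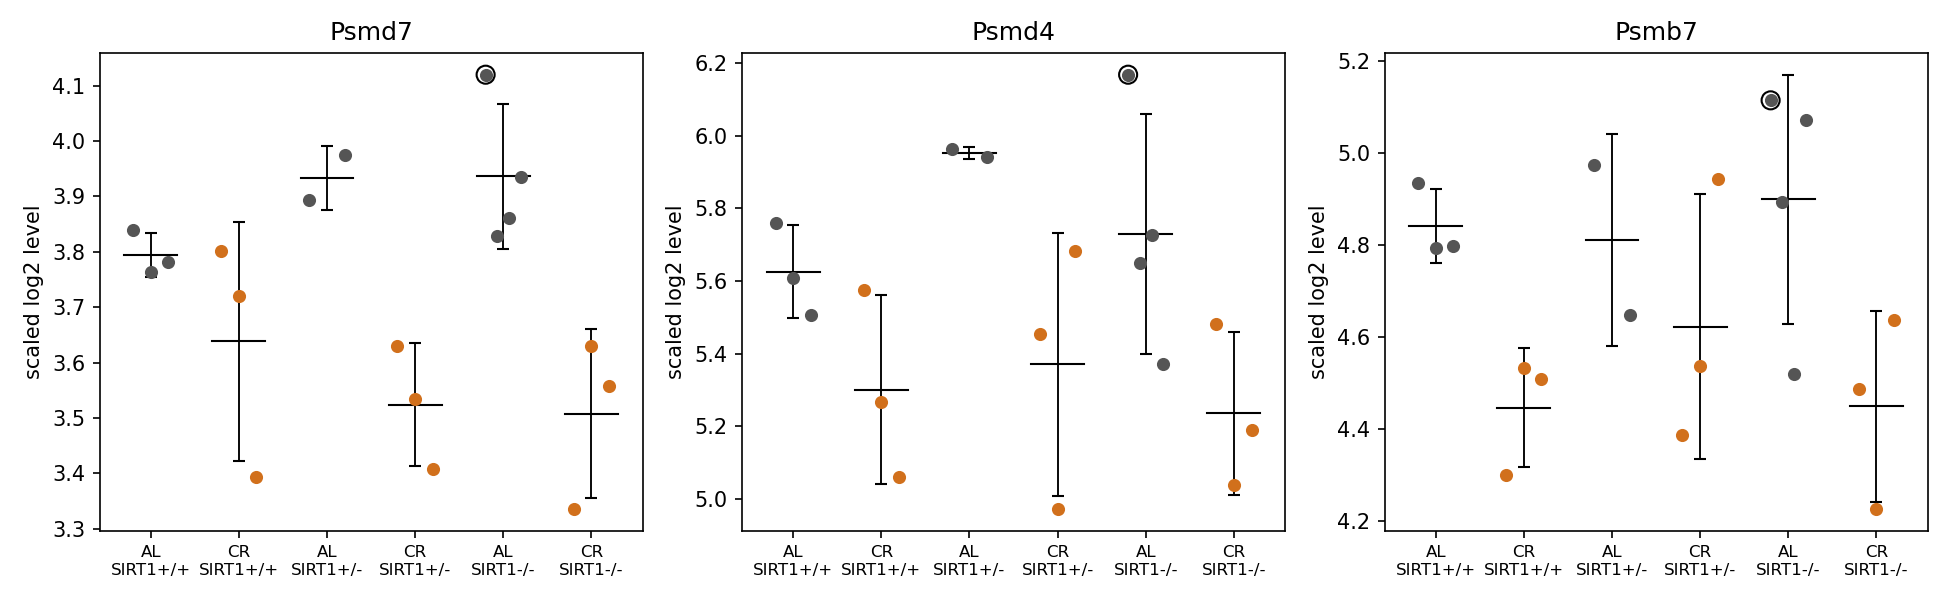
Scaled log2 level of Psmd7, Psmd4 and Psmb7 (vertical axes, which do not start at 0 and differ between panels) in each of 18 livers by diet and genotype. Grey points are AL and orange points CR livers, lines are group means with SD, and the ring marks the library labelled AL SIRT1-/- replicate 1. Psmd7 ran from 3.76 to 4.12 on AL and from 3.34 to 3.80 on CR.

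Psmd8, a lid subunit needed late in the assembly of the lid, had the widest spread within groups of all members. Psmd8 read 3.23, 0.31 and 2.95 in AL SIRT1+/+, 0.89, 3.85 and 3.85 in CR SIRT1+/+, 0.31 and 0.32 in AL SIRT1+/-, 3.38, 3.08 and 4.28 in CR SIRT1+/-, 0.67, 0.20, 3.04 and 0.91 in AL SIRT1-/-, and 4.15, 3.17 and 3.10 in CR SIRT1-/- livers. The 18 livers fell into 2 clear ranges, 7 at 0.20 to 0.91 and 11 at 2.95 to 4.28, with nothing between. Only 3 of 9 AL livers (SIRT1+/+ replicates 1 and 3 and SIRT1-/- replicate 3) were in the upper range, against 8 of 9 CR livers (all but SIRT1+/+ replicate 1). In signal the lower range was 124 to 271 and the upper 729.5 to 2673, read by 1 probe. A gap as wide as that of 2.04 was found in 54 of the 8950 genes, or 0.603%.

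The averaged change of Psmd8 was 2.08 ± 0.511 on the log2 scale (95% interval 0.99 to 3.16, adjusted p = 0.0203, exact permutation p = 0.00571, or 0.0521 adjusted over all genes). A mean change describes a gene with 2 ranges poorly, and the count of livers is the plainer measure. Within genotypes the change was 0.70 ± 0.868 for SIRT1+/+, 3.26 ± 0.970 for SIRT1+/- and 2.27 ± 0.812 for SIRT1-/- mice. The average was 1.98 with the doubtful library moved. Of the 11 livers without Xist, the upper range held 2 of 7 AL and 4 of 4 CR livers, and of the 7 with Xist 1 of 2 AL and 4 of 5 CR livers. Without either AL SIRT1+/- library the adjusted p was 0.0646 or 0.0545.

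**Figure D2:**
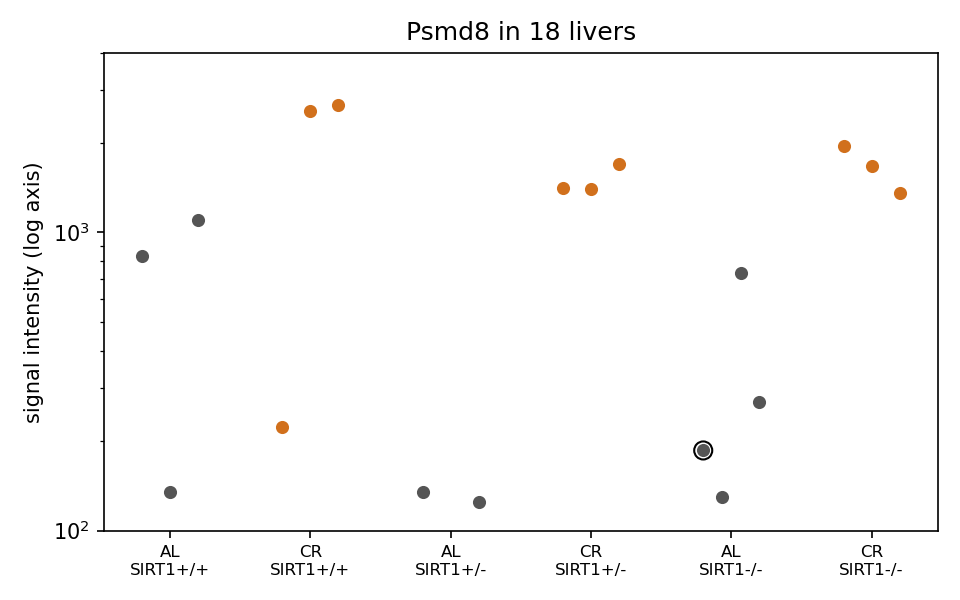
Signal intensity of Psmd8 (log axis) in each of 18 livers by diet and genotype, AL in grey and CR in orange, with a ring around the library labelled AL SIRT1-/- replicate 1. Livers lay at 124 to 271 or at 729.5 to 2673, with 3 of 9 AL and 8 of 9 CR livers in the upper range.

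The other 25 members did not pass the adjusted limma test, at changes of -0.36 to 0.30. By the exact permutation test adjusted over all genes, Psmc3 (p = 0.0319) and Psmd5 (p = 0.0426) passed among them, beside 931 of all 8950 genes. In the alpha ring, whose genes form the outer gate of the core, 4 of 5 were lower (2 with median scaling), with Psma5 at -0.29 ± 0.0996 and an adjusted p of 0.0785. In the beta ring 6 of 7 were lower (3 with median scaling). The exception was Psmb5, which carries the site that cuts after hydrophobic residues, at 0.27 ± 0.109 (adjusted p = 0.127). All but Psmc1 of the 5 base ATPases, which unfold the substrate, were lower (3 of 5 with median scaling), at most -0.30 ± 0.110 for Psmc4 (adjusted p = 0.0968). Of the chaperones, Psmd5 stood at -0.30 ± 0.0966 (adjusted p = 0.0599), Psmd9 at 0.30 ± 0.108 (0.0864) and Psmd10 at 0.12 ± 0.0798 (0.362). Psmd12, a lid subunit, came closest among the rest at -0.28 ± 0.0885 (adjusted p = 0.0546), and was called at an adjusted p of 0.0439 with the doubtful library moved. Psmd5 and Psmd2 passed under the other 3 scalings, Psmd5 at adjusted p of 0.0133, 0.0148 and 0.0156 and Psmd2 at 0.0265, 0.0329 and 0.0328 with quantile, neqc and median scaling.

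**Figure D3:**
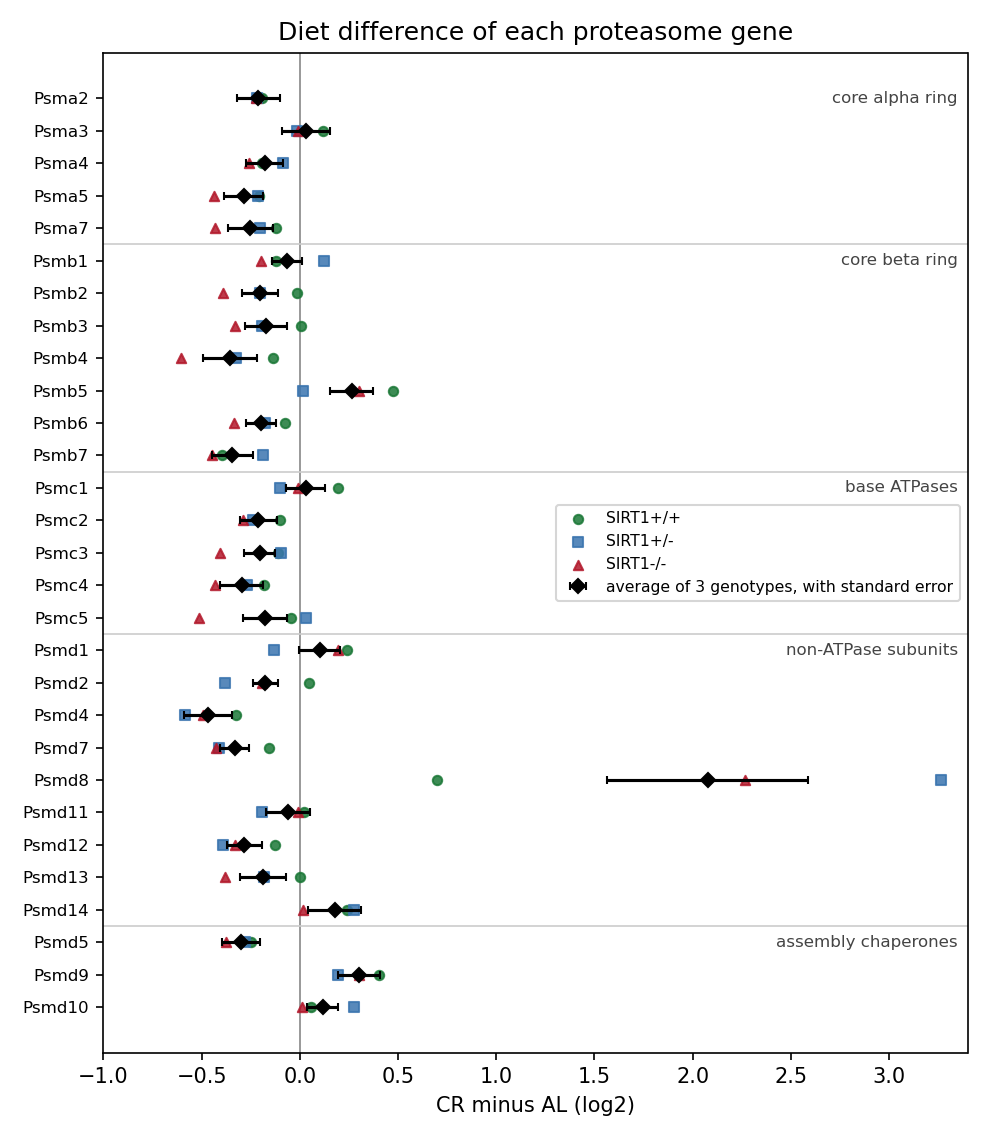
CR minus AL on the log2 scale (horizontal axis) for each of 29 proteasome genes, grouped by place in the complex. Black diamonds with standard errors are averages over genotypes, and green circles, blue squares and red triangles are the SIRT1+/+, SIRT1+/- and SIRT1-/- estimates. Psmd8 stands alone at 2.08, and 21 of 29 averages are below 0 with this scaling, 14 of them below 0 under all 4 scalings.

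The size of these differences depended on how bright a gene was and on how arrays were scaled. With the z-transformation the median over all genes fell from 0.07 at levels of 0 to 1 to -0.11 at levels of 5 to 6. It was -0.27 above 6, and most proteasome genes are bright. Of the 20 members with a mean level above 3, 18 were lower on CR, with a median of -0.21, while 56.8% of the 1750 other genes at levels of 3 to 7 were lower, with a median of -0.04. The members then called down were 3 of 20 (15%), beside 8.14% of all genes at these levels. The 9 dimmer members had a median of 0.12. With quantile normalization the bright members had a median of -0.14 and their peers one of 0.01. With the detected probes of each array set to the same median the values were -0.03 and 0.12. The members' median thus stood below that of these peers under each scaling, while its direction against 0 nearly vanished in the last. The peers were not matched in level within that band. With the z-transformation the members had medians of -0.20, -0.27, -0.20 and -0.28 at levels of 3 to 4, 4 to 5, 5 to 6 and above 6. All genes had 0.01, -0.04, -0.11 and -0.27 there. In SIRT1+/+ livers the members had -0.11, -0.15, -0.08 and -0.16, beside 0.02, -0.06, -0.12 and -0.32. Of all genes called, 63.8% were rises with the z-transformation, 52.2% with quantile normalization and 49.5% with median scaling.

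**Figure D4:**
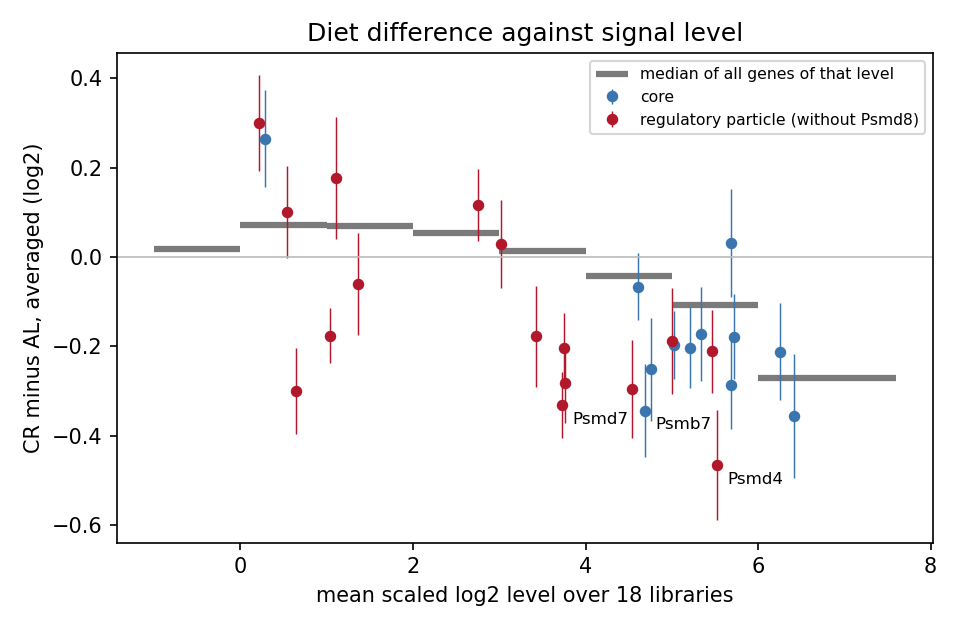
Averaged CR minus AL (log2, vertical axis) against mean scaled log2 level (horizontal axis) for 28 proteasome genes (Psmd8, at 2.08, is outside the range), core in blue and regulatory particle in red, with standard errors. Grey bars are medians of all genes in a band of level, the bands at both ends being open. Of the 20 members above level 3, 18 lie below 0 with this scaling and 11 with median scaling.

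Taken by genotype, the median diet difference was nearest to 0 in SIRT1+/+ livers with the z-transformation. The core had a median of -0.12 for SIRT1+/+, -0.19 for SIRT1+/- and -0.33 for SIRT1-/- mice, and that over the regulatory particle was -0.00, -0.18 and -0.29, beside 0.03, 0.03 and 0.01 over all genes. The direction held under each scaling in SIRT1-/- livers (core -0.33 to -0.13, regulatory particle -0.31 to -0.20), whereas the core turned to 0.04 with quantile normalization and 0.08 with median scaling in SIRT1+/+ livers and to 0.04 with median scaling in SIRT1+/- livers. With the doubtful library moved, the core stood at -0.29 in SIRT1+/- and -0.25 in SIRT1-/- livers, and the regulatory particle at -0.26 and -0.21.

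No member passed the adjusted limma test within a genotype, where 0.659% of all genes were called for SIRT1+/+, 0.0223% for SIRT1+/- and 0.145% for SIRT1-/- mice. At an unadjusted p under 0.05 the members were 2 higher and 1 lower for SIRT1+/+, 1 higher and 4 lower for SIRT1+/-, then 1 higher and 13 lower for SIRT1-/- mice. Of all genes, 8.66% were higher and 5.9% lower at that limit for SIRT1+/+, 5.08% and 3.25% for SIRT1+/-, then 8.55% and 6.48% for SIRT1-/- mice. With the doubtful library moved the 13 of SIRT1-/- livers became 5 and the 4 of SIRT1+/- livers became 7. Of all genes, 14.3% for SIRT1-/- and 8.83% for SIRT1+/- mice were then under that limit in either direction. Members with all CR livers below all AL livers were 2 in SIRT1+/+ (7.87% of all genes), 9 in SIRT1+/- (12.6%) and 7 in SIRT1-/- mice (5.72%), and those with all above were 2 (12.6%), 4 (18%) and 2 (7.09%). With the doubtful library moved, those below were 9 (6.7%) in SIRT1+/- and 7 (8.74%) in SIRT1-/- mice, and those above 3 (9.83%) and 2 (9.61%).

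In SIRT1+/+ livers the smallest p-values were those of Psmb7, given above, and of Psmb5. Psmb5 read 0.07, -0.10 and 0.12 in AL SIRT1+/+, 0.50, 0.57 and 0.43 in CR SIRT1+/+, 0.07 and 0.34 in AL SIRT1+/-, 0.49, 0.31 and -0.13 in CR SIRT1+/-, 0.21, 0.01, 0.00 and 0.63 in AL SIRT1-/-, and 0.64, 0.26 and 0.65 in CR SIRT1-/- livers. All 3 CR livers lay above all 3 AL livers in SIRT1+/+ mice, and the ranges overlapped in the other genotypes. The change was 0.47 ± 0.185 (adjusted p = 0.248) at a dim signal of 91.4 to 229. In SIRT1+/- livers they were those of Psmd8 and of Psmd2, the large base subunit on which ubiquitin shuttles dock. Psmd2 read 1.06, 0.86 and 0.94 in AL SIRT1+/+, 0.84, 1.04 and 1.11 in CR SIRT1+/+, 1.29 and 1.28 in AL SIRT1+/-, 1.03, 0.92 and 0.77 in CR SIRT1+/-, 1.20, 1.22, 1.14 and 1.13 in AL SIRT1-/-, and 1.03, 0.90 and 1.00 in CR SIRT1-/- livers. All CR livers were below all AL livers in SIRT1+/- and SIRT1-/- mice, and its SIRT1+/- change was -0.38 ± 0.118 (adjusted p = 0.409).

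In SIRT1-/- livers Psmd7 came first (-0.43 ± 0.119, adjusted p = 0.131) and the base ATPase Psmc3 second (-0.41 ± 0.125, adjusted p = 0.174). Psmc3 read 3.74, 3.74 and 3.70 in AL SIRT1+/+, 3.67, 3.61 and 3.58 in CR SIRT1+/+, 3.78 and 3.85 in AL SIRT1+/-, 3.70, 3.63 and 3.82 in CR SIRT1+/-, 4.38, 3.86, 3.74 and 3.96 in AL SIRT1-/-, and 3.67, 3.51 and 3.55 in CR SIRT1-/- livers. Its CR livers lay below its AL livers in SIRT1+/+ and in SIRT1-/- mice, and the library labelled AL SIRT1-/- replicate 1 was the highest of all. With that library moved, the changes were -0.37 ± 0.123 for Psmd7 and -0.28 ± 0.135 for Psmc3.

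**Figure D5:**
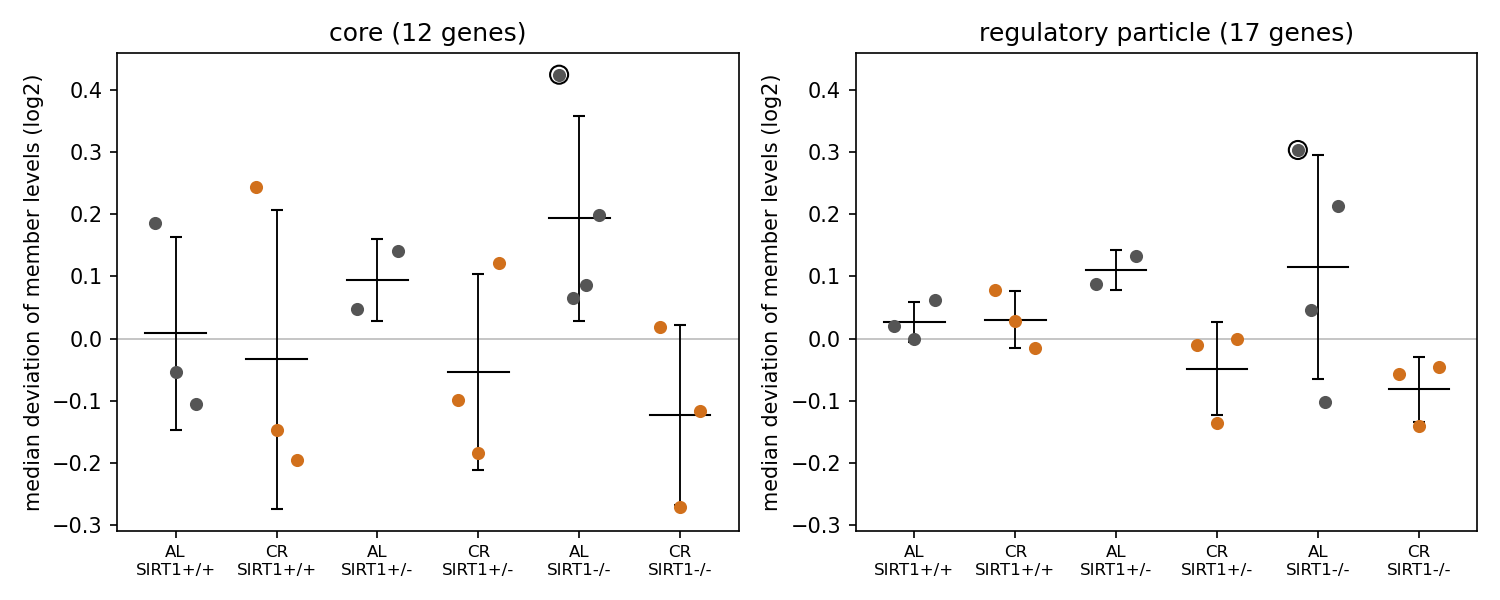
Median deviation of the 12 core genes (left) and the 17 regulatory particle genes (right) from their means over all livers, on the log2 scale, for each of 18 livers by diet and genotype. Grey points are AL and orange points CR livers, lines are group means with SD, and the ring marks the library labelled AL SIRT1-/- replicate 1, which is the highest in both panels at 0.43 and 0.30.

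The core and the regulatory particle were then set side by side in each liver, as the median deviation of their genes from the gene's mean over 18 livers. For the core the group means were 0.01 ± 0.155 (SD, n = 3) in AL and -0.03 ± 0.241 in CR SIRT1+/+ livers, 0.09 ± 0.0664 (n = 2) and -0.05 ± 0.157 in SIRT1+/- livers, and 0.19 ± 0.165 (n = 4) and -0.12 ± 0.146 in SIRT1-/- livers. For the regulatory particle they were 0.03 ± 0.0319 and 0.03 ± 0.0465, then 0.11 ± 0.032 and -0.05 ± 0.0752, then 0.12 ± 0.180 and -0.08 ± 0.0524. The core minus the regulatory particle lay between -0.06 and 0.08 in all 6 groups, with SDs of 0.0344 to 0.199, so the particles differed by less than the spread between mice. The CR and AL ranges were apart for the core in SIRT1-/- mice (0.07 to 0.43 on AL, -0.27 to 0.02 on CR) and for the regulatory particle in SIRT1+/- mice. With the doubtful library moved, the AL means were 0.20 ± 0.197 (n = 3) for the core and 0.17 ± 0.114 for the regulatory particle in SIRT1+/- livers, and 0.12 ± 0.0715 (n = 3) and 0.05 ± 0.158 in SIRT1-/- livers. In SIRT1-/- mice AL replicate 3 had a regulatory median of -0.10, within the CR range.

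Whether the CR effect differed between genotypes was tested for each member. None of the 29 passed for any of the 3 pairs of genotypes (beside 0.0223% of all genes for SIRT1+/+ against SIRT1-/- and 0% for the others). At an unadjusted p under 0.05 the count was 0, 1 and 0 for SIRT1+/+ against SIRT1-/-, SIRT1+/+ against SIRT1+/- and SIRT1+/- against SIRT1-/-, beside 5.21%, 1.17% and 3.13% of all genes. The 1 was Psmd2, whose CR effect was 0.42 higher in SIRT1+/+ than in SIRT1+/- livers (95% interval 0.09 to 0.76, adjusted p = 1.00). For 28 of 29 members the CR effect was higher in SIRT1+/+ than in SIRT1-/- livers, beside 4677 of all 8950 genes. The median difference was 0.21 beside 0.01 over all genes, but each comparison uses the same groups for all genes and the members vary together. Xist was also unevenly spread, being detected in SIRT1+/+ livers on CR only and in SIRT1-/- livers on both diets. With the doubtful library moved the medians were 0.14 for the core and 0.11 for the regulatory particle. The CR effect was then lower in SIRT1+/+ than in SIRT1-/- livers for 3 core members and 1 regulatory member.

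For SIRT1+/+ against SIRT1-/- the smallest p-values were those of Psmb2, a core subunit of the beta ring (0.37, 95% interval -0.07 to 0.82), and of the base ATPase Psmc5 (0.47, interval -0.09 to 1.03). Psmb2 read 5.41, 5.26 and 5.05 in AL SIRT1+/+, 5.51, 5.07 and 5.09 in CR SIRT1+/+, 5.24 and 5.43 in AL SIRT1+/-, 5.24, 4.83 and 5.32 in CR SIRT1+/-, 5.44, 5.33, 5.31 and 5.35 in AL SIRT1-/-, and 5.10, 4.97 and 4.84 in CR SIRT1-/- livers. Psmc5 read 3.61, 3.31 and 3.55 in AL SIRT1+/+, 3.45, 3.71 and 3.17 in CR SIRT1+/+, 3.65 and 3.16 in AL SIRT1+/-, 3.38, 3.29 and 3.63 in CR SIRT1+/-, 3.80, 3.54, 3.22 and 3.91 in AL SIRT1-/-, and 3.01, 3.02 and 3.28 in CR SIRT1-/- livers. Psmb2 was lower in all CR than in all AL livers of SIRT1-/- mice, and the Psmc5 ranges overlapped in every genotype. Psmc5 also led SIRT1+/- against SIRT1-/- (0.54, interval -0.05 to 1.14), followed by Psmb1, another core subunit of the beta ring (0.32, interval -0.08 to 0.72). Psmb1 read 4.80, 4.29 and 4.59 in AL SIRT1+/+, 4.25, 4.53 and 4.53 in CR SIRT1+/+, 4.53 and 4.61 in AL SIRT1+/-, 4.72, 4.70 and 4.66 in CR SIRT1+/-, 4.81, 4.61, 4.83 and 4.84 in AL SIRT1-/-, and 4.63, 4.57 and 4.51 in CR SIRT1-/- livers. It was higher in all CR than in all AL livers of SIRT1+/- mice, which no longer held with the doubtful library moved (change of 0.04 against 0.12 as labelled). With that library moved the differences between SIRT1+/- and SIRT1-/- were 0.35 for Psmc5 and 0.22 for Psmb1, and those between SIRT1+/+ and SIRT1-/- were 0.35 for Psmb2 and 0.41 for Psmc5. The second Psmc5 probe gave 0.07 and 0.37 for the Psmc5 differences as labelled.

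The order of the 3 genotypes rested on 1 library. As labelled, 19 of 29 members (65.5%, 10 of 12 in the core) had their lowest CR effect in SIRT1-/- livers, beside 37.6% of all genes. Once the doubtful library was placed among the AL SIRT1+/- livers, 7 of 29 (24.1%) did, beside 38.6%. The count of members lower on CR in all 3 genotypes moved little, from 16 (55.2%, beside 22.6% of all genes) to 17 (58.6%, beside 21.9%), but was 12 with quantile normalization (25.7% of all genes) and 7 with median scaling (32.2%).

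The genotypes were compared on each diet as well, and no member passed in any of the 6 comparisons. Of all genes, 0.38% were called between SIRT1-/- and SIRT1+/+ on AL, 0.246% between SIRT1-/- and SIRT1+/- on AL and 0% in the other 4. On AL, members at an unadjusted p under 0.05 were Psmb6 (0.29, 95% interval 0.03 to 0.55) and Psmd2 (0.22, interval 0.01 to 0.43) for SIRT1-/- above SIRT1+/+, and Psmd2 (0.33, interval 0.08 to 0.59) for SIRT1+/- above SIRT1+/+, beside 6.59% and 1.11% of all genes. Psmb6, the core subunit that cuts after acidic residues, read 5.17, 4.88 and 4.86 in AL SIRT1+/+, 4.96, 4.94 and 4.77 in CR SIRT1+/+, 5.07 and 5.18 in AL SIRT1+/-, 4.93, 4.86 and 5.05 in CR SIRT1+/-, 5.48, 5.07, 5.14 and 5.34 in AL SIRT1-/-, and 5.04, 4.78 and 4.95 in CR SIRT1-/- livers. Its AL SIRT1-/- and AL SIRT1+/+ ranges overlapped, and with the doubtful library moved the difference was 0.21 ± 0.133 (adjusted p = 0.880). Psmd8 came second for SIRT1+/- against SIRT1+/+ on AL (-1.85, interval -3.91 to 0.22). With the doubtful library moved, Psmd2 no longer reached an unadjusted p under 0.05 for SIRT1-/- against SIRT1+/+ (0.21 ± 0.106), still did for SIRT1+/- against SIRT1+/+ (0.31 ± 0.106), and Psmd4 joined it there (0.40 ± 0.184). As labelled, no member reached an unadjusted p under 0.05 between SIRT1-/- and SIRT1+/- on AL (6.8% of all genes), between SIRT1-/- and SIRT1+/+ on CR (3.92%) or between SIRT1-/- and SIRT1+/- on CR (5.09%).

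For SIRT1-/- against SIRT1+/- on AL the leading members were the chaperone Psmd10 (0.25, interval -0.06 to 0.55) and the deubiquitinase Psmd14 (0.39, interval -0.13 to 0.91). Psmd10 read 2.64, 2.64 and 2.90 in AL SIRT1+/+, 2.69, 2.85 and 2.81 in CR SIRT1+/+, 2.57 and 2.50 in AL SIRT1+/-, 2.85, 2.83 and 2.76 in CR SIRT1+/-, 2.62, 2.86, 2.59 and 3.07 in AL SIRT1-/-, and 2.70, 2.99 and 2.70 in CR SIRT1-/- livers. Psmd14 read 0.92, 1.08 and 1.41 in AL SIRT1+/+, 1.47, 1.33 and 1.33 in CR SIRT1+/+, 0.65 and 0.83 in AL SIRT1+/-, 1.13, 1.13 and 0.80 in CR SIRT1+/-, 1.42, 0.87, 0.54 and 1.70 in AL SIRT1-/-, and 1.11, 1.02 and 1.31 in CR SIRT1-/- livers. Both AL SIRT1+/- livers lay below all AL SIRT1-/- livers for Psmd10 and within their range for Psmd14. The Psmd14 difference and the separation of the Psmd10 ranges rested on the doubtful library, while the Psmd10 difference did not. With it moved, the Psmd10 ranges overlapped (2.62 against 2.59) and the Psmd14 difference was 0.07 ± 0.250, while Psmd10 (0.28 ± 0.129) and Psmd4 (-0.44 ± 0.184) reached an unadjusted p under 0.05, beside 8.21% of all genes.

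On CR the leading members were Psmc5 and Psmb2 for SIRT1-/- below SIRT1+/+ (-0.34, interval -0.75 to 0.07, and -0.26, interval -0.58 to 0.07), and Psmd1, the largest base subunit, for SIRT1+/- below SIRT1+/+ (-0.46, interval -0.83 to -0.08, unadjusted p = 0.0196 beside 4.47% of all genes). Psmd1 read 0.50, 0.53 and 0.62 in AL SIRT1+/+, 1.21, 0.62 and 0.53 in CR SIRT1+/+, 0.46 and 0.47 in AL SIRT1+/-, 0.70, 0.26 and 0.04 in CR SIRT1+/-, 0.56, 0.47, 0.31 and 0.53 in AL SIRT1-/-, and 0.58, 0.76 and 0.65 in CR SIRT1-/- livers. The SIRT1+/+ mean was raised by replicate 1 at 1.21, and the SIRT1+/- livers lay at 0.70, 0.26 and 0.04. Psmb1 came second for SIRT1+/- against SIRT1+/+ (0.26, interval -0.02 to 0.53), and Psmd1 and Psmc5 led SIRT1-/- against SIRT1+/- (0.33, interval -0.04 to 0.70, and -0.33, interval -0.74 to 0.08).

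The brightest member was Psmb4, a structural subunit of the beta ring, and the dimmest the chaperone Psmd9. Psmb4 read 6.64, 6.37 and 6.21 in AL SIRT1+/+, 6.77, 6.16 and 5.87 in CR SIRT1+/+, 6.62 and 6.64 in AL SIRT1+/-, 6.25, 5.97 and 6.70 in CR SIRT1+/-, 7.08, 6.54, 6.70 and 6.61 in AL SIRT1-/-, and 6.46, 5.92 and 6.00 in CR SIRT1-/- livers. Psmd9 read -0.09, -0.02 and 0.40 in AL SIRT1+/+, 0.49, 0.51 and 0.49 in CR SIRT1+/+, -0.13 and 0.05 in AL SIRT1+/-, 0.23, 0.14 and 0.11 in CR SIRT1+/-, 0.04, 0.04, -0.18 and 0.57 in AL SIRT1-/-, and 0.12, 0.49 and 0.65 in CR SIRT1-/- livers. Psmb4 was lower in all CR than in all AL livers of SIRT1-/- mice (-0.61 ± 0.220, adjusted p = 0.221), and Psmd9 was higher in all CR than in all AL livers of SIRT1+/+ and of SIRT1+/- mice.

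Within groups the core genes moved together from mouse to mouse more than the regulatory genes did. After the group means were taken away, the median correlation between pairs of genes over 18 livers was 0.49 among the core, 0.18 among the regulatory particle, 0.18 between one and the other and 0.03 over all pairs of genes tested. All pairs share the arrays and their scaling. The particles were not matched in brightness, since all core genes but Psmb5 had a mean level above 3 and many regulatory genes did not. Psmc4 had the highest median correlation with the other members (0.57), followed by Psmd13, a lid subunit (0.53), and Psmb6 (0.51). Psmd8 had the lowest (-0.19), and Psmd10, Psmd2, Psmd11, Psmd5, Psmb1 and Psmd9 were below 0 as well. All of these but the core gene Psmb1 had a mean level below 3.

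For some genes other probes told another course. The second probe of Psmd12 had a change of 0.22 against -0.28 for the one used, at median signals of 81.5 and 1659. Psmd12 read 4.01, 3.76 and 3.79 in AL SIRT1+/+, 3.86, 3.79 and 3.53 in CR SIRT1+/+, 4.02 and 3.98 in AL SIRT1+/-, 3.58, 3.47 and 3.76 in CR SIRT1+/-, 4.18, 3.81, 3.69 and 3.85 in AL SIRT1-/-, and 3.45, 3.39 and 3.81 in CR SIRT1-/- livers. Its CR livers were below its AL livers in SIRT1+/- mice, and the ranges overlapped in the others. The dimmest of 3 Psmb7 probes gave 0.00 against -0.34, at median signals of 765.5 and 3007. For Psmd10 the probe used gave 0.12 and another -0.24, at 772 and 213. The Psmc5 probes were near-equal in brightness and differed as well. At median signals of 1344 and 1402, the one used, which had the slightly higher mean level, gave -0.18 averaged and -0.51 in SIRT1-/- livers, and the other 0.07 and -0.07. Psmc3ip was detected in 3 libraries and lay at signals of 410 in AL SIRT1+/+ replicate 3 and 635 in CR SIRT1+/+ replicate 1, against 52.4 to 97.5 in the other 16.

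The machinery around the proteasome was measured with it, and its counts stand beside the 10% of all genes called over all genotypes (6.41% up, 3.63% down). Of the chaperones that build the core, Pomp, which completes the beta ring, fell by 0.51 on the log2 scale (± 0.0965, adjusted p = 0.00618) and Psmg2, which helps to build the alpha ring, by 0.40 (± 0.110, adjusted p = 0.0317), while Psmg1 stood at 0.16 and Psmg3 at -0.09 without passing. Vcp, the p97 unfoldase that hands substrates to the proteasome, fell by 0.52 (± 0.138, adjusted p = 0.0272) and 1 of 5 p97 genes passed. Pomp and Vcp were lower under all 4 scalings and lost their calls under median scaling (adjusted p = 0.0626 and 0.0857), and Psmg2 lost its call with the doubtful library moved (0.0579). The 11 libraries without Xist could not test these 3 calls, since that fit left 1 CR SIRT1+/+ and 1 CR SIRT1-/- library.

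Bach1, a repressor at antioxidant response elements, rose by 0.85 ± 0.166 (adjusted p = 0.00674), so 1 of 4 detected transcription factors of these promoters passed, beside 10% of all genes. Nfe2l1, the activator of the subunit genes, stood at -0.04 ± 0.0973 and Nfe2l2 at -0.04 ± 0.126. Ecpas, which ties the core to the regulatory particle, rose by 0.48 ± 0.134 (adjusted p = 0.0348), so 1 of 6 further regulatory partners passed. For Bach1 and Ecpas too, the 11 libraries without Xist were too few to test the call. None of the inducible subunits and PA28 genes passed (0 of 5), with Psmb9, the interferon-induced counterpart of Psmb6, at -0.47 ± 0.180 (adjusted p = 0.103). None of the 3 shuttle receptors and of the 2 other activators detected passed, and Psme3 and Psme4 stood at -0.11 and 0.02.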

How the data were processed

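Liver RNA of 18 mice was hybridised to Illumina mouse bead arrays. The authors deposited a signal intensity and a detection p-value for each probe and array, made with BeadStudio 3.4.0 by the submitters' processing notes, and a z-score, which the deposited intensity reproduced here to 5e-10. Log10 intensities were z-transformed per array and multiplied by the mean SD of log2 signal (1.84). Probes detected (p under 0.05) in at least 2 libraries were kept, and the probe of highest mean scaled level stood for its gene. One model of 6 group means was fitted with limma 3.58.1 (R 4.3.3), in which p-values measure the spread between mice, and p was adjusted by Benjamini-Hochberg over 8950 genes, and genes under 0.05 in this two-sided test were called. The fit was tested on simulated data. Figures were drawn with matplotlib 3.10.9.

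The members and lists were chosen with earlier results of these data known. Values per library are given for members called in any contrast, the 3 with the smallest p in the averaged effect and the 2 in each other contrast, the brightest and the dimmest, those whose probes disagree in sign, and Psmd8. As a check of the labels, diet ratios recomputed from the deposited scores met the tabulated ones within 0.02 for 198 of 213 genes for SIRT1+/+, 10 for SIRT1+/- and 8 for SIRT1-/- mice as labelled. When the first AL SIRT1-/- library was placed in the AL SIRT1+/- group these counts became 198, 197 and 199. The labels were kept. Alternatives were other scalings, filters, probe rules, weights, a covariate, a replicate block and leaving out each library. Fits of the 11 libraries without Xist and of the regulatory particle without Psmd8 were chosen after seeing the data.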

Additional observations from a re-analysis of the deposited data

Results flagged for a closer look

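Psmb1, a core subunit, lay at a level of 4.61 in AL SIRT1-/- replicate 2, while the other 3 livers of that group lay at 4.81, 4.83 and 4.84. The gap to the next liver was 0.901 of the range of the group, past Dixon's 95% critical value for 4 samples. It was 1 of 30 levels tested, chance marks about 1 in 20, and 6.93% of all genes were past that value in this group. The liver at 4.81 was replicate 1, whose group was in doubt. With it moved the group holds 3 livers, and the value for 4 samples no longer applies.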

How the results depend on the processing

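Of the single-gene comparisons under the alternatives, 282 kept direction and side of the threshold, 38 kept their direction and lost the call, and 0 reversed. Only the 4 calls over all genotypes could lose a call, so all 38 losses were theirs. The other comparisons were within genotypes, where no member was called at the outset, so the 282 do not measure how stable the calls are. The 4 members called over all genotypes, beside 10% of all genes, became 16 with array quality weights (3 higher, 13 lower). With these weights 23.9% of all genes were called. The fit of the 11 libraries without Xist left 1 CR SIRT1+/+ and 1 CR SIRT1-/- library, so the count of members called in it is not given. The count was 2 with Eif2s3y as a covariate and 1 to 7 without 1 library. The share of all genes called is not given for these fits, so these counts alone do not tell whether all genes shifted. The median of the core over all genotypes moved from -0.20 to 0.023 with median scaling, and that of the regulatory particle from -0.18 to -0.061 with the mean of all probes. In SIRT1+/+ livers the core moved from -0.12 to 0.039 with quantile normalization, 0.040 with neqc and 0.081 with median scaling. With median scaling the core moved to 0.041 in SIRT1+/- and -0.13 in SIRT1-/- livers and the regulatory particle to -0.019 in SIRT1+/- livers. The causes were not tested. Deviations of same-numbered libraries had a median r of 0.022 over 40 pairs, 10 of them over 0.1. Libraries with different numbers had -0.0107 over 94 pairs, 17 of them over 0.1. These values cannot tell whether the numbers pair some of the mice. With a replicate block 4 members were called, where the share of all genes called is likewise not given. The number of arrays, 2 to 4 a group, limits the precision.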

Other observations

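Psmd8 lies on chromosome 7, and 5 of the 8 genes that ran most like it over the 18 libraries lie there too, which was looked at after its values were seen. Pearson's r with Psmd8 was 0.90 for Mrps12, 0.89 for Zfp420, -0.87 for Sae1, 0.87 for Lgals4 and 0.86 for Cyp2b9, all of chromosome 7. It was -0.86 for Ttf2 of chromosome 3, 0.85 for Ell of chromosome 8 and 0.84 for Nfyb of chromosome 10. Among the 100 tested genes nearest to it in gene order, 11 (11%) had an r beyond 0.7 in either direction, beside 2.13% of 609 other genes of chromosome 7 and 0.959% of 8237 genes of other chromosomes. The genes next to it did not run like it, with r of 0.26 for Spred3 and 0.10 for Kcnk6. All of these values share the libraries and their diets.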
